A study of Mus musculus and Rattus norvegicus with 12 samples.

Results

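Axin2, Lef1, Tcf7, Notum, Sp5, Sp8, Dkk1, Znrf3, Rnf43 and Nkd1 are a set of target and feedback genes of canonical Wnt signalling. They were picked by gene symbol: 10 of the 24411 rows of the mouse count tables and 8 of the 17315 rows of the rat tables carry these symbols. Tcf7 and Znrf3 have no row of that symbol in the rat tables used here. RNA-seq was made from 12 blastocyst-derived cell lines, so that endoderm-type lines of both rodents could be set beside each other and beside embryonic stem cells. The pXEN group held the mouse lines pXEN2, pXEN4 and pXEN6, grown in the conditions also used for the rat lines. The XEN group, extraembryonic endoderm stem cell lines of mouse, held XEN1, XEN2 and XEN5, grown with serum on a layer of mouse embryo fibroblasts. The ES group, pluripotent mouse lines, held ES2 and ES3, grown with serum, the cytokine LIF and the inhibitor pair called 2i. All mouse lines were of the ICR strain, and none of the labels names a transgene or mutation. The rat XENP group held CX1 and MAX8 from WKY rats and MAX2 and MAX3 from F344 rats. Each library was a separate line, at passages 17 to 21 (pXEN), 9 to 21 (XEN), 14 to 16 (ES) or 10 to 40 (XENP), so an SD over lines is the spread between lines. Cell type and culture changed together in every mouse comparison and cannot be told apart.

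In canonical Wnt signalling a secreted Wnt protein binds a Frizzled receptor and an Lrp5 or Lrp6 coreceptor, which stops the Axin and Apc complex from marking beta-catenin for destruction. Beta-catenin then enters the nucleus and, with Tcf and Lef proteins, turns on target genes. Many of these targets feed back on the pathway: Axin2 and Nkd1 act inside the cell, Znrf3 and Rnf43 remove Frizzled receptors from the surface, and Notum and Dkk1 are secreted inhibitors. One of the 2 compounds in the usual 2i mixture inhibits Gsk3, the kinase of the beta-catenin destruction complex, and thereby turns this pathway on. XEN cells are related to the extraembryonic endoderm that lines the yolk sac, and the anterior visceral endoderm of the early mouse embryo is known for making Dkk1.

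Promoter stretches of 4 genes are shown, Axin2 as the most used readout of the pathway and Sp5, Sp8 and Dkk1 because their windows hold letters that Tcf and Lef proteins are known to bind. The letters searched were CTTTGAT or CTTTGAA or CTTTGTT or CTTTGTA on both strands, in the 250 bases before each RefSeq start site of GRCm38.p6. Of the 10 genes, 8 matched the RefSeq promoter table, with 15 start sites between them, and 4 of these 15 windows held a match, from Lef1, Sp5, Sp8 and Dkk1. Of all 32851 windows in the table, 14.8% held one. Matched letters are in capitals, 5′ to 3′ on the strand of the gene. The Axin2 window is chr11:108920099-108920348 on the plus strand and holds none of the 4 words. The Sp5 window is chr2:70474673-70474922 on the plus strand. The Sp8 window is chr12:118846983-118847232 on the plus strand, before a second start site inside the gene. For Dkk1 only the 30 bases around its matches are shown, chr19:30549586-30549615 on the minus strand, which lie in an annotated exon. In Sp5 the first capitals are CTTTGTT read on the opposite strand, and in Sp8 they are CTTTGAA read on the opposite strand.
Axin2: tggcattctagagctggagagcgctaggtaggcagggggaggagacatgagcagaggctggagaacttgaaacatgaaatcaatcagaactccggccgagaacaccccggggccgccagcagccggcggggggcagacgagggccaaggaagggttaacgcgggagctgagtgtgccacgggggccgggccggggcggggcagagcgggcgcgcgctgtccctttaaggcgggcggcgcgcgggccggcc
Sp5: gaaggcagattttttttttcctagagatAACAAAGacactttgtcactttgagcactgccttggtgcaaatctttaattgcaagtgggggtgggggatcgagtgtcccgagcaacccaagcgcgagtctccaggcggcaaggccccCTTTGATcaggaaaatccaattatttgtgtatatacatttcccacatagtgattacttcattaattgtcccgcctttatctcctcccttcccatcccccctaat
Sp8: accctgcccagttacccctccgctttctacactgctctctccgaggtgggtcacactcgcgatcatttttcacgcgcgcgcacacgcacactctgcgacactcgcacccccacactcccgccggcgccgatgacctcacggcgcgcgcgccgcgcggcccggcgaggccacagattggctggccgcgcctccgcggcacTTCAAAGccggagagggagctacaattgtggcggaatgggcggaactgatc
Dkk1: agCTTTGAAatcccatcccggCTTTGTTgt
Sp5 and Dkk1 held a pair of matches each in these stretches, and no match overlapped another. A match is a string of letters and was not tested as a binding site.

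Gene counts per library ran from 2661691 to 3483069 in mouse and from 1047535 to 1242937 in rat, and Rn45s, the precursor of ribosomal RNA, made up 20.7% to 50.1% of the mouse counts. Levels are CPM (counts scaled to a common library size, by TMM in mouse), and 1 read in a mouse line was worth 0.264 to 0.411 CPM. The endoderm identity of the lines was plain from 12 markers, whose summed level lay at 11904 to 18861 CPM in the pXEN lines, at 9510 to 25969 CPM in the XEN lines and at 87.2 to 164 CPM in the ES lines. The 11 pluripotency markers summed to 41.0 to 78.0 CPM in the pXEN lines, 18.3 to 19.8 CPM in the XEN lines and 4767 to 4821 CPM in ES. The 19 fibroblast markers summed to 37.0 to 73.4 CPM in the pXEN lines, 577 to 703 CPM in the XEN lines and 14.0 to 17.3 CPM in ES. Of these 19, 11 were at 0 in every pXEN line, among them Col1a2, Col3a1, Dcn and Lum, and 1, Fap, was at 0 in every XEN line. In every ES line 9 were at 0, with the same Col1a2, Col3a1, Dcn and Lum among them. Acta2 and Tagln had the highest means in XEN, 184 and 161 CPM. Fbln2 had the highest mean in pXEN, 42.4 CPM against 27.8 CPM in XEN, and was not called there. The fibroblast markers were called lower in pXEN than in XEN for 14 of the 16 that were tested and higher in XEN than in ES for 15 of 16. They thus moved with both contrasts of XEN, and their part in the results below was not tested.

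The summed level of the Wnt target and feedback genes was lowest in the pXEN lines. It was 15.5 to 19.4 CPM there, 34.6 to 112 CPM in the XEN lines and 70.3 to 79.5 CPM in the ES lines. No pXEN line overlapped an XEN or ES line in this sum. Znrf3 made up 54.0% to 64.8% of the sum in the pXEN lines, and Sp8 made up 41.4% in XEN2. Not every gene was lowest in pXEN, as Dkk1 and Nkd1 had their lowest mean in ES. Between 4 and 7 of the 10 genes had any count in a pXEN line, 8 in each XEN line, and 9 in ES2 and 8 in ES3. Over all genes the pXEN lines were likewise lowest, with 12190 to 12500 genes detected in the pXEN lines, 12998 to 13488 in XEN and 13934 to 14319 in ES. Only 5 of the 10, Tcf7, Notum, Sp8, Dkk1 and Znrf3, had enough counts to enter the tests, and a gene high in a single group could enter through that group alone. In bulk RNA, fewer cells that express a gene and less RNA per cell cannot be told apart.

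**Figure D1:**
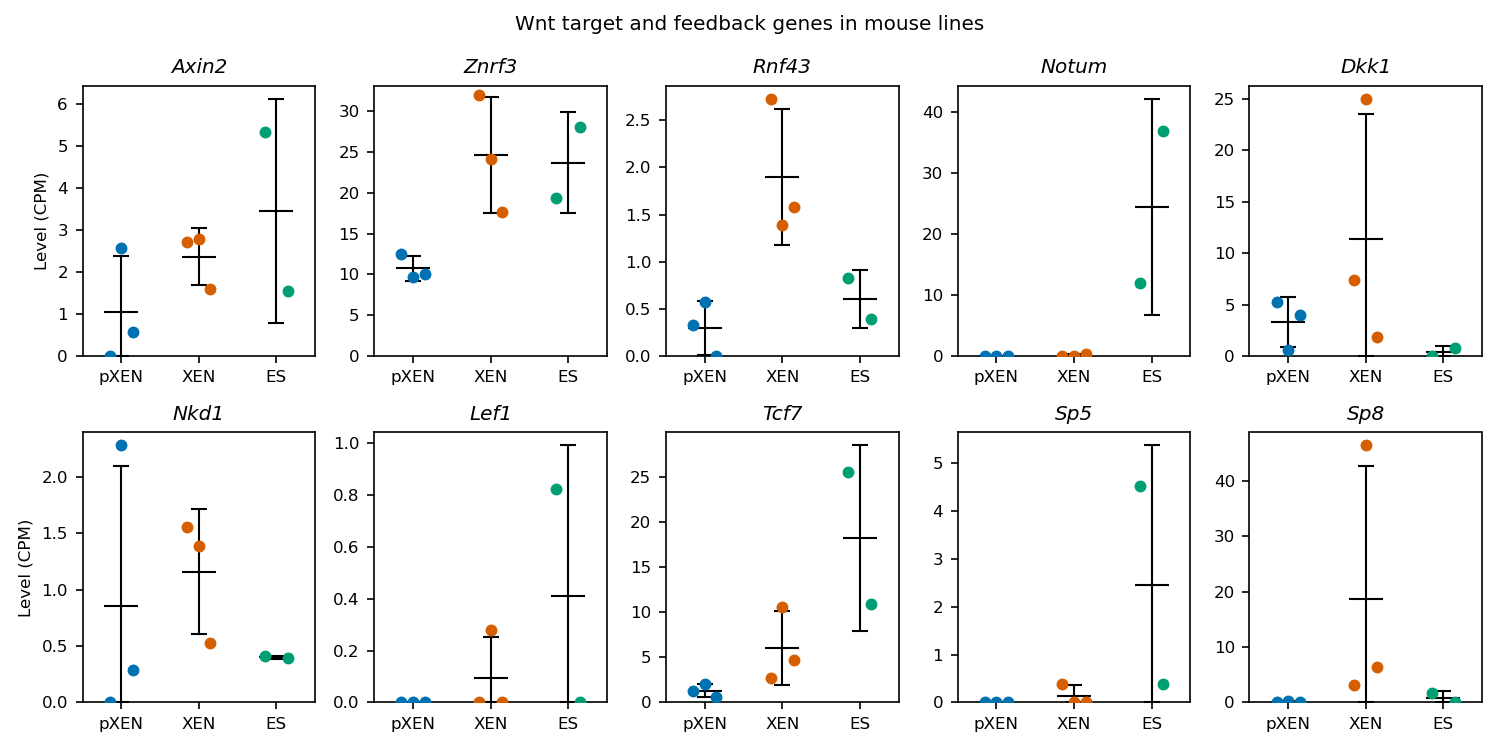
Level of each of the 10 Wnt target and feedback genes (y axis, TMM-scaled CPM, own scale per panel) in pXEN, XEN and ES lines (x axis); points are lines, horizontal marks are means and bars are SDs. Notum is high in both ES lines, Sp8 and Dkk1 are high in XEN2, and Znrf3 is near 10 CPM in the 3 pXEN lines, below the lowest XEN and ES line.

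With edgeR's quasi-likelihood test and an adjusted p under 0.05 as the call, pXEN against XEN gave 0 higher and 1 lower call among the 5 tested genes, Sp8, where 0.918% of all 10895 tested genes were called higher and 3.63% lower. At an unadjusted p under 0.05, 0 were higher and 3 lower, and DESeq2 called 0 higher and 2 lower. The lines of pXEN lay wholly below those of XEN for 4 of the 10 genes, Tcf7, Sp8, Znrf3 and Rnf43, and wholly above for none, where 11.5% and 8.32% of tested genes did so. In pXEN against ES there were 0 higher and 3 lower calls, Notum, Tcf7 and Znrf3, beside 18.2% of all tested genes higher and 17.8% lower. An unadjusted p under 0.05 and DESeq2 each gave the same counts, 0 and 3. There, pXEN lay below ES for 4 of the 10, Tcf7, Notum, Sp5 and Znrf3, and above for none, beside 32.6% and 30.2% of tested genes. In XEN against ES, Dkk1 and Sp8 were called higher and Notum lower, beside 20.7% and 17.8%. XEN lay above ES for 4 of the 10, Sp8, Dkk1, Rnf43 and Nkd1, and below for 3, Tcf7, Notum and Sp5, beside 31.6% and 31.7% of tested genes. Of these, Sp5 was separated on 1 read each in XEN1 and ES3. Nkd1 was separated on 2 reads in XEN5 against 1 read in each ES line. All shares given for line ranges cover tested genes only, whereas the 10 genes include those that did not enter the tests. The median log2 fold change of the 5 tested genes was -1.81 in pXEN against XEN, -2.60 in pXEN against ES and 0.05 in XEN against ES, where the medians of all tested genes were 0.00, -0.03 and 0.00. Each median of the 5 is the value of 1 gene, Dkk1, Sp8 and Znrf3 in turn, which was not called in that contrast. The Sp8 value has an SE of 2.55 and rests on 1 read in pXEN and 4 in ES, so these medians do not show a shift of the set.

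Axin2, which rebuilds the destruction complex and is widely used as a readout of the pathway, was barely detected. It lies on chromosome 11 from 108920349 to 108950783, plus strand (GRCm38). Its level was 0, 2.56 and 0.574 CPM in pXEN2, pXEN4 and pXEN6, 2.73, 2.78 and 1.59 CPM in XEN1, XEN2 and XEN5, and 5.35 and 1.56 CPM in ES2 and ES3. The means were 1.05 ± 1.34 CPM in pXEN, 2.36 ± 0.675 CPM in XEN (SD, n = 3 each) and 3.45 ± 2.68 CPM in ES (SD, n = 2). The largest of these values rests on 13 reads, in ES2, and all 3 groups overlapped. Axin2 had too few counts to be tested, and with no count filter its adjusted p was 0.698 in pXEN against XEN, 0.227 in pXEN against ES and 0.706 in XEN against ES. Thus a difference in Axin2 was not detectable at this depth, which also holds for the ES lines grown with 2i.

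Nkd1, which binds Dishevelled and dampens Wnt signals, also had few reads. Its locus is chromosome 8 from 88521354 to 88594884, plus strand. It had 0, 2.28 and 0.287 CPM in pXEN2, pXEN4 and pXEN6, against 1.56, 1.39 and 0.528 CPM in XEN1, XEN2 and XEN5. In ES2 and ES3 it had 1 read each, 0.411 and 0.390 CPM. The pXEN lines overlapped both other groups, with pXEN4 the highest of all 8 lines, and Nkd1 was not tested. Both Axin2 and Nkd1 had their highest pXEN level in pXEN4 and no read in pXEN2.

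Znrf3, a membrane ubiquitin ligase that clears Frizzled receptors from the cell surface, was the one gene of the set with over 30 reads in every mouse line. Its locus is chromosome 11 from 5276324 to 5444847, minus strand. Its level was 12.5, 9.68 and 10.0 CPM in pXEN2, pXEN4 and pXEN6, against 32.0, 24.2 and 17.7 CPM in XEN1, XEN2 and XEN5. ES2 and ES3 had 19.3 and 28.1 CPM. All pXEN lines were below all XEN and ES lines, while XEN and ES overlapped. The means were 10.7 ± 1.54 CPM in pXEN, 24.6 ± 7.14 CPM in XEN (SD, n = 3 each) and 23.7 ± 6.18 CPM in ES (SD, n = 2). Against ES, Znrf3 was 2.21-fold lower in pXEN, a log2 fold change of -1.14 (SE 0.34, adjusted p = 0.0206). This call was lost without pXEN4 (adjusted p = 0.0508), without pXEN6 (0.0565) and without ES3 (0.175). Against XEN the log2 fold change in pXEN was -1.19 (SE 0.31) and missed the threshold (adjusted p = 0.0512), though DESeq2 gave 0.0467, the fit with no count filter 0.0339 and the fit without XEN5 0.0434. XEN and ES differed by a log2 fold change of 0.05 (SE 0.33, adjusted p = 0.921).

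Rnf43, the paralog of Znrf3 with the same activity, had few reads. Its locus is chromosome 11 from 87662722 to 87735539, plus strand. Its level was 0.329, 0.569 and 0 CPM in pXEN2, pXEN4 and pXEN6, against 2.73, 1.39 and 1.59 CPM in XEN1, XEN2 and XEN5. ES2 and ES3 had 0.822 and 0.390 CPM. Every XEN line was above every pXEN and ES line, on 18 reads in XEN, 3 in pXEN and 3 in ES. XEN held 6.05 times the pXEN level (95% counting interval 1.77 to 32.1) and 3.01 times the ES level (0.880 to 16.0). Rnf43 did not enter the tests, and with no count filter its adjusted p was 0.226 in pXEN against XEN and 0.292 in XEN against ES.

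Notum, a secreted enzyme that removes the lipid from Wnt proteins, was detected at more than 1 read in ES lines only. Its locus is chromosome 11 from 120653788 to 120661175, minus strand. It had no read in any pXEN line, 0, 0 and 0.264 CPM in XEN1, XEN2 and XEN5, and 11.9 and 37.0 CPM in ES2 and ES3, on 29 and 95 reads. Neither pXEN nor XEN overlapped ES, and the ES lines differed widely from each other, with a mean of 24.5 ± 17.7 CPM (SD, n = 2). Against 3 counts over the group, Notum was at least 83.0-fold lower in pXEN than in ES (adjusted p = 0.000222). This bound was 39.9-fold without ES3 and 124-fold without ES2. The ES level was 247 times that of XEN (95% counting interval 43.5 to 9826, adjusted p = 0.000324), 119 times without ES3 and 368 times without ES2. Both calls held in all 13 alternative fits made for each.

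Dkk1, a secreted protein that blocks the Lrp coreceptors, had the opposite distribution and was seen mostly in the endoderm lines. Its locus is chromosome 19 from 30545863 to 30549665, minus strand. Its level was 5.26, 0.569 and 4.02 CPM in pXEN2, pXEN4 and pXEN6, and 7.40, 25.0 and 1.85 CPM in XEN1, XEN2 and XEN5, against 0 and 0.779 CPM in ES2 and ES3. The pXEN lines overlapped both other groups, through pXEN4 with ES, and all XEN lines were above both ES lines. XEN2 alone held 77.6% of the Dkk1 reads of the XEN group. XEN had 29.1 times the ES level (95% counting interval 7.89 to 243, adjusted p = 0.0407). That call held in 6 of 13 alternative fits, with adjusted p from 0.00570 to 0.204, and was lost without XEN1, XEN2, ES2 or ES3. Without XEN2 the ratio was 10.2 (adjusted p = 0.0758), without ES2 it was 15.0 (0.204) and without ES3, which left ES with no read, XEN was at least 9.45-fold higher (0.107). The level in pXEN was 7.97 times that in ES (2.03 to 68.6), which was not called (adjusted p = 0.211). Without ES2 that ratio was 4.09, and without ES3 the pXEN level was at least 2.58-fold higher. Between pXEN and XEN the log2 fold change was -1.81 (SE 0.96, adjusted p = 0.437), and -0.46 without XEN2.

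Lef1 and Tcf7 encode DNA-binding partners of beta-catenin and are targets of the pathway themselves. Lef1 lies on chromosome 3 from 131110471 to 131224356, plus strand. It had no read in the 3 pXEN lines, 1 read in XEN2 among the XEN lines and 2 reads in ES2, so no group rose above the limit that 3 counts allow. Tcf7 lies on chromosome 11 from 52252371 to 52283014, minus strand. Tcf7 had 1.32, 1.99 and 0.574 CPM in pXEN2, pXEN4 and pXEN6, against 2.73, 10.6 and 4.76 CPM in XEN1, XEN2 and XEN5. ES2 and ES3 had 25.5 and 10.9 CPM. The order of the groups was ES, XEN and pXEN from high to low with no overlap between neighbours, though XEN2 at 10.6 CPM nearly reached ES3. The means were 1.29 ± 0.710 CPM in pXEN, 6.02 ± 4.07 CPM in XEN (SD, n = 3 each) and 18.2 ± 10.3 CPM in ES (SD, n = 2). In pXEN, Tcf7 was 13.6-fold lower than in ES, a log2 fold change of -3.77 (SE 0.67, adjusted p = 0.00136), a call that held in all 13 alternative fits and was 8.21-fold without ES2. Against XEN the log2 fold change in pXEN was -2.20 (SE 0.65, adjusted p = 0.0935), called in 1 of 14 alternative fits, that with no count filter (0.0398), and it was -1.53 without XEN2. In XEN against ES it was -1.57 (SE 0.59, adjusted p = 0.0542), not called here but called in 5 of 13 alternative fits. It was -2.24 without XEN2 (adjusted p = 0.0156), -2.06 without ES3 (0.0487) and -0.84 without ES2 (0.468).

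Sp5 and Sp8 are zinc finger transcription factors of the Sp family that Wnt signals induce in the mouse embryo. Sp5 lies on chromosome 2 from 70474923 to 70477729, plus strand. It had no read in pXEN, 1 read in XEN1 among the XEN lines, and 4.52 and 0.390 CPM in ES2 and ES3, on 11 reads and 1 read. The ES signal is thus that of ES2, and XEN1 and ES3 each held a single read, so that their separation reflects library scaling alone. Against 3 counts over the group, Sp5 was at least 8.03-fold lower in pXEN than in ES. It did not enter the tests, and with no count filter its adjusted p was 0.0124 in pXEN against ES and 0.0385 in XEN against ES.

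Sp8 was found mainly in the XEN lines, and above all in XEN2. It lies on chromosome 12 from 118846329 to 118852576, plus strand. It had 0, 0.285 and 0 CPM in pXEN2, pXEN4 and pXEN6, against 3.12, 46.4 and 6.34 CPM in XEN1, XEN2 and XEN5. ES2 and ES3 had 1.64 and 0 CPM. Every XEN line was above every pXEN and ES line, while pXEN and ES overlapped. XEN2 held 83.9% of the XEN reads of Sp8 and 9.82 times the mean of XEN1 and XEN5, which was 4.73 CPM. The fibroblast markers of XEN2 summed to 626 CPM, between 577 CPM in XEN1 and 703 CPM in XEN5, and their part in the Sp8 level was not tested. XEN had 201 times the pXEN level (95% counting interval 35.6 to 7969, adjusted p = 0.0448) and 50.6 times without XEN2 (adjusted p = 0.0379). That call held in 8 of 14 alternative fits, with adjusted p from 0.000116 to 0.246, and was lost when any of the 3 pXEN lines was left out. Without pXEN4, which held the only pXEN read, Sp8 was at least 43.5-fold lower in pXEN (adjusted p = 0.246). XEN against ES gave a log2 fold change of 4.48 (SE 1.51, adjusted p = 0.0459), or 22.3-fold. It was 5.72-fold without XEN2 (adjusted p = 0.0906), 11.2-fold without ES3 (0.212) and at least 17.1-fold without ES2 (0.0994), all no longer called. Sp8 in pXEN against ES was not called (adjusted p = 0.460).

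Per kilobase of exon, which puts genes of different length on one scale, the mean level over lines was led by different genes in each cell type. In pXEN these were Znrf3 at 1.36 CPM per kb and Dkk1 at 1.35 CPM per kb, or 37.3% and 37.1% of the summed level. In XEN it was Dkk1 at 4.71 CPM per kb, followed by Sp8 at 4.09, Znrf3 at 3.12 and Tcf7 at 2.29 CPM per kb. In ES it was Notum at 10.2 CPM per kb, or 45.2% of the sum, followed by Tcf7 at 6.93, Znrf3 at 3.00 and Sp5 at 1.17 CPM per kb. The lines of a group differed in this order. Dkk1 led in pXEN2 and pXEN6 with 50.4% and 50.0% of the level per length, and Znrf3 in pXEN4 with 36.8%. Among the XEN lines Dkk1 led in XEN2 alone, with 36.0% beside 35.6% for Sp8, whereas Znrf3 led in XEN1 and XEN5 with 39.5% and 32.2%. Tcf7 led in ES2 with 46.5% and Notum in ES3 with 64.0%.

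**Figure D2:**
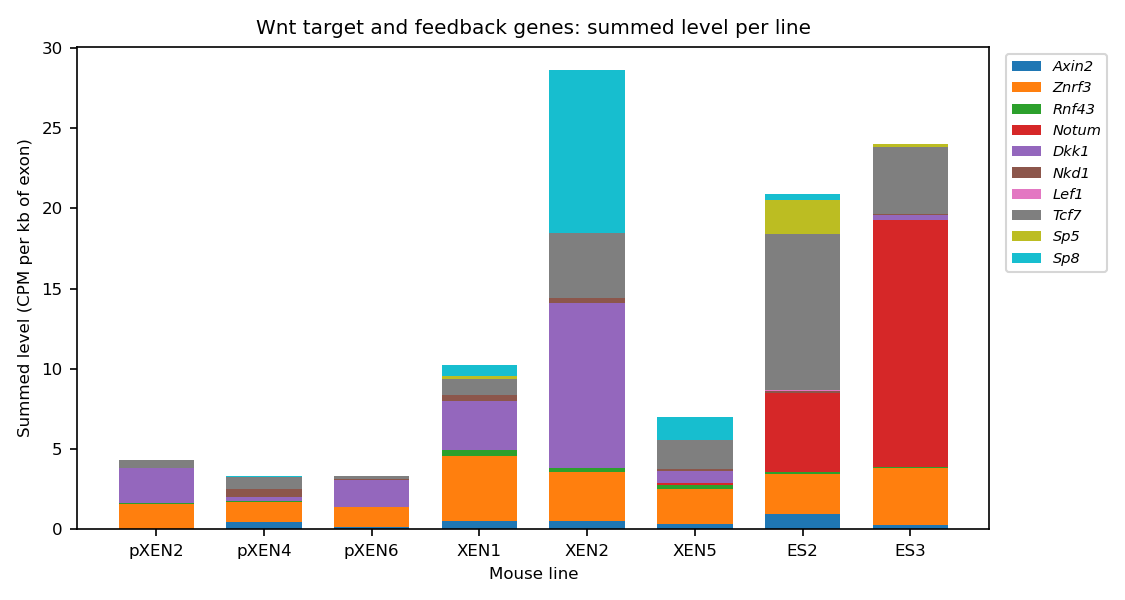
Summed level of the 10 Wnt target and feedback genes per exon length in each mouse line (y axis, TMM-scaled CPM per kb of exon), with the part of each gene stacked in colour and pXEN, XEN and ES lines on the x axis. The 3 pXEN lines reach 3.31 to 4.30 CPM per kb and consist mostly of Znrf3 and Dkk1 except in pXEN4, XEN2 reaches 28.6 CPM per kb mainly through Dkk1 and Sp8, and Notum and Tcf7 make up most of both ES bars.

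Of the 8 genes with a row in the rat tables, Sp8 was the only one with a count in the XENP lines. Rat Sp8 had 8.05, 6.47, 1.91 and 2.68 CPM in CX1, MAX2, MAX3 and MAX8, on 10, 7, 2 and 3 reads, with a mean of 4.78 ± 2.95 CPM (SD, n = 4). All 4 rat lines had reads for it, against 1 read in the 3 pXEN lines grown in the same conditions. CPM of the 2 species cannot be set on a common scale, and species and annotation changed together, so no fold was computed. By rank within a line, Sp8 exceeded 38.6% to 49.1% of the 14387 symbols shared by the species in the rat lines, 0% to 33.1% in the pXEN lines, 44.0% to 82.5% in the XEN lines and 0% to 38.5% in the ES lines. Shared symbols without any read made up 32.5% to 34.1% in the rat lines and 33.1% to 34.7% in the pXEN lines. They made up 28.0% to 29.7% in the XEN lines and 25.0% to 26.3% in the ES lines. The lower of these ranks thus lie at or little above the symbols with no read. Axin2, Lef1, Notum, Sp5, Dkk1, Rnf43 and Nkd1 had no read in any XENP line, where 3 counts correspond to 2.41 to 2.86 CPM per line and 0.668 CPM over the group. Dkk1 thus had no read in the rat XENP lines, beside 16, 2 and 14 reads in pXEN2, pXEN4 and pXEN6.

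Other parts of the pathway were compared through 96 further genes, of which 55 entered the tests. A gene high in a single group could again enter through that group alone, as Rspo2 did through XEN. In pXEN against XEN, 0 were higher and 12 lower, or 21.8% of those tested, beside the 3.63% of all genes given above. With an unadjusted p under 0.05, 1 was higher, Wnt4, and 19 were lower, and DESeq2 called 1 higher, Wnt4, and 13 lower. The count of 12 lower genes was 7 in the fit of the pXEN and XEN lines alone and 7 to 10 with a line left out, with 7 without pXEN2 or pXEN6 and 8 without XEN1 or XEN2. The 396 lower calls over all tested genes were 344 in that fit and 254 to 360 with a line left out. The fibroblast markers were lower in pXEN for 14 of 16 in the same contrast, and their part in the count of 12 was not tested. In pXEN against ES, 9 were higher and 9 lower, or 16.4% each, near the 18.2% and 17.8% of all tested genes. Fewer were higher without ES2, which was also so among all tested genes. In XEN against ES, 17 were higher and 7 lower, or 30.9% and 12.7% beside 20.7% and 17.8% of all tested genes. Here too, fewer of both these genes and all tested genes were higher without ES2.

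**Figure D3:**
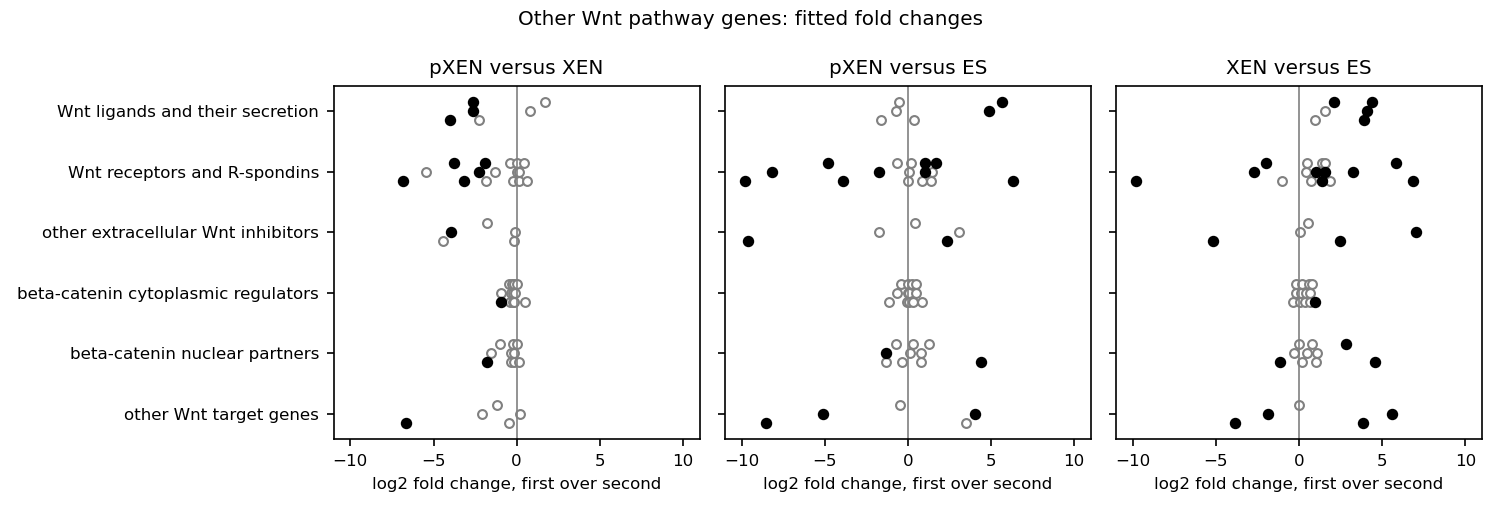
Fitted log2 fold change (x axis) of each tested gene of 6 other Wnt pathway lists (y axis) in pXEN against XEN, pXEN against ES and XEN against ES; each point is a gene and filled points are called at an adjusted p under 0.05. In pXEN against XEN all 12 called genes lie left of 0, while the contrasts with ES have called genes on both sides. Fitted values of genes with no or few reads in a group depend on the prior count.

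Among the ligands and their secretion machinery, 6 of 21 genes were tested. Wls, the carrier of Wnt proteins to the surface, had 15.5, 10.5 and 4.59 CPM in pXEN2, pXEN4 and pXEN6, against 51.0, 63.7 and 75.0 CPM in XEN1, XEN2 and XEN5. It was lower in every pXEN line, with a log2 fold change of -2.64 (SE 0.42, adjusted p = 0.00530), as were Wnt11 and Porcn, the enzyme that adds the lipid to Wnt proteins, with log2 fold changes of -4.02 (SE 0.93, adjusted p = 0.0362) and -2.61 (SE 0.62, adjusted p = 0.0422). The Wnt11 call was lost in 7 of 14 alternative fits and the Porcn call in 4. XEN2 held 102 of the 136 XEN reads of Wnt11, whose log2 fold change was -2.80 without XEN2 (adjusted p = 0.114) and -4.77 without pXEN6 (0.0740). For Porcn it was -1.99 without XEN2 (adjusted p = 0.113) and -3.24 without pXEN2 (0.0459). The median log2 fold change of the 6 genes was -2.44. In XEN against ES, Wls was called higher, with a log2 fold change of 2.09 (SE 0.47, adjusted p = 0.00599). Wnt11 was also called higher there, on 136 reads in XEN and 3 in ES. XEN held 22.8 times the ES level of Wnt11 (95% counting interval 7.63 to 112), as fitted a log2 fold change of 4.39 (SE 1.20, adjusted p = 0.0159). The Wls value was 1.64 without ES2 (adjusted p = 0.0658) and 2.74 without ES3 (0.0133), and that of Wnt11 3.17 without XEN2 (0.0393), 4.04 without ES2 (0.123) and 4.90 without ES3 (0.0935). The ligands Wnt4 and Wnt7b were called higher against ES in both endoderm groups. Wnt4 had 27.3, 14.0 and 25.3 CPM in pXEN2, pXEN4 and pXEN6, and 5.85, 3.61 and 10.3 CPM in XEN1, XEN2 and XEN5, against 0 and 0.779 CPM in ES2 and ES3. Its level in pXEN was 54.8 times that in ES (95% counting interval 15.0 to 455, adjusted p = 0.000418), and in XEN 16.8 times that in ES (4.48 to 142, adjusted p = 0.00524). Wnt4 was above XEN in every pXEN line, without a call (adjusted p = 0.0632). Wnt7b averaged 30.8 ± 11.9 CPM in pXEN, 17.7 ± 8.87 CPM in XEN and 0.974 ± 1.38 CPM in ES, and rose against ES in both (log2 fold change 4.90, SE 0.83, adjusted p = 0.00124 in pXEN and 4.11, SE 0.83, adjusted p = 0.00356 in XEN). In the rat XENP lines Wnt7b averaged 19.7 ± 10.5 CPM, on a scale not shared with mouse, while Wnt4 had 2 reads in all. Both ligands had all their ES reads in ES3, and the log2 fold change in pXEN against ES was 4.76 for Wnt4 and 3.95 for Wnt7b without ES2 and, as fitted against 0 reads, 9.15 and 9.62 without ES3, all still called.

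Of 16 tested receptors and R-spondins, 5 fell in pXEN against XEN, beside 3.63% of all tested genes: Fzd2, Fzd3, Fzd5, Fzd6 and Rspo2. The Fzd2 call (log2 fold change -2.24, SE 0.54, adjusted p = 0.0365) was lost in 5 of 14 alternative fits, with adjusted p up to 0.130. The Frizzled receptor Fzd6 averaged 2.80 ± 1.94 CPM in pXEN and 25.6 ± 9.28 CPM in XEN (SD, n = 3 each). Its log2 fold change was -3.15 (SE 0.49, adjusted p = 0.00428), and it was -2.77 without pXEN2 and -3.78 without pXEN4. Fzd5 had 1.65, 1.71 and 1.72 CPM in pXEN2, pXEN4 and pXEN6, against 8.18, 6.12 and 5.28 CPM in XEN1, XEN2 and XEN5, and 29.2 and 23.4 CPM in ES2 and ES3. These groups did not overlap, and the log2 fold change of Fzd5 in pXEN was -1.91 (SE 0.38, adjusted p = 0.0149) against XEN and -3.92 (SE 0.39, adjusted p = 3.14e-05) against ES. The call against XEN was lost in 2 of 14 alternative fits. Fzd10 had no read in pXEN or XEN and 44.0 and 26.1 CPM in ES2 and ES3, so the bound on its decrease against ES was at least 116-fold in the pXEN lines and at least 115-fold in XEN. Against ES, 4 of the 16 were called higher in pXEN: the R-spondin receptor Lgr4, the coreceptor Lrp6, Ror1 and Ryk. Another 5 were called lower, Fzd3, Fzd5, Fzd6, Fzd10 and Ror2, beside 18.2% of all tested genes higher and 17.8% lower. Ror1 had 31 reads in pXEN and no read in ES (adjusted p = 0.0204), and Lgr4 had an adjusted p of 0.0308. In XEN against ES the receptor Fzd4 rose, at 15.4 ± 10.3 CPM in XEN and 1.63 ± 1.76 CPM in ES, with a log2 fold change of 3.23 (SE 0.77, adjusted p = 0.00726). It was 2.53 without XEN2, 5.18 without ES2 and 2.41 without ES3, where the call was lost (adjusted p = 0.0613).

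Of 5 tested secreted inhibitors outside the set, 1 fell in pXEN against XEN. Frzb, which binds Wnt proteins, had 2.30, 3.13 and 0.574 CPM in pXEN2, pXEN4 and pXEN6, against 17.5, 57.0 and 20.3 CPM in XEN1, XEN2 and XEN5, a log2 fold change of -3.96 (SE 0.64, adjusted p = 0.00649), and it had 1 read in ES. The XEN lines were all above the pXEN lines, with XEN2 the highest, and the log2 fold change without XEN2 was -3.22. Sfrp1, of the same family, had no read in pXEN, 0.807 ± 0.293 CPM in XEN and 32.5 and 29.2 CPM in ES2 and ES3. For Sfrp1 the pXEN level was at least 103-fold lower than that of ES. Dkk3, a divergent member of the Dkk family, averaged 14.2 ± 8.38 CPM in pXEN, 15.9 ± 2.78 CPM in XEN and 2.79 ± 0.460 CPM in ES. It rose against ES in both (adjusted p = 0.00809 in pXEN and 0.00579 in XEN), calls that were lost without ES2 (0.0697 and 0.0545).

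Of 13 tested cytoplasmic regulators, Tnks, which marks Axin proteins for destruction, was lower in pXEN than in XEN, with a log2 fold change of -0.94 (SE 0.19, adjusted p = 0.0153), a call lost without pXEN2 (0.0645) or pXEN4 (0.0512), and no other gene of this list was called there. In XEN against ES Tnks was higher by a log2 fold change of 0.98 (SE 0.22, adjusted p = 0.00470), lost without ES2 (0.0514). With edgeR 0 were called in pXEN against ES, 3 had an unadjusted p under 0.05 (Amer1 higher, Apc and Btrc lower), and DESeq2 called 1, Nkd2, lower. Ctnnb1, which encodes beta-catenin and was chosen after its values were seen, averaged 648 ± 62.5 CPM in pXEN, 636 ± 15.8 CPM in XEN and 618 ± 37.0 CPM in ES, with overlapping lines. Of 10 nuclear partners, Tcf7l2, another DNA-binding partner of beta-catenin, had 45.1, 84.3 and 38.5 CPM in pXEN2, pXEN4 and pXEN6, and 72.5, 44.8 and 68.2 CPM in XEN1, XEN2 and XEN5, against 3.29 and 1.95 CPM in ES2 and ES3. It rose against ES by a log2 fold change of 4.40 (SE 0.50, adjusted p = 7.84e-05) in pXEN and 4.54 (SE 0.50, adjusted p = 7.65e-05) in XEN. Tcf7 and its relative Tcf7l2 were thus placed in opposite order, with Tcf7 highest in ES and Tcf7l2 lowest there. The corepressor genes Tle1 and Tle4 also moved, Tle1 lower in pXEN than in XEN (log2 fold change -1.76, SE 0.42, adjusted p = 0.0384, lost in 5 of 14 alternative fits) and Tle4 lower in pXEN and XEN than in ES, calls that were lost without ES2 (adjusted p = 0.0531 and 0.0848). Ctnnbip1, an inhibitor of the binding of beta-catenin to Tcf proteins, rose in XEN against ES, at 15.7 ± 3.06 CPM in XEN and 2.18 ± 1.33 CPM in ES. The log2 fold change was 2.82 (SE 0.54, adjusted p = 0.00226), and it was 2.32 without ES2 and 3.63 without ES3.

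Among 5 other target genes tested, Ccnd1, which encodes cyclin D1, had 0, 0 and 0.287 CPM in pXEN2, pXEN4 and pXEN6, on 1 read. It had 18.7, 9.45 and 14.5 CPM in XEN1, XEN2 and XEN5, and 47.3 and 57.7 CPM in ES2 and ES3. The groups did not overlap, and XEN held 138 times the pXEN level (95% counting interval 24.4 to 5498, adjusted p = 0.000213). The fitted log2 fold change of -6.67 was -3.83 with unstranded counts and -8.44 without pXEN6, which held the only pXEN read, both still called. Rat XENP lines, grown in the conditions of pXEN, had a mean of 38.4 ± 15.7 CPM of Ccnd1 (SD, n = 4). That value is not on the scale of the mouse CPM and was not compared with pXEN by a test. Ephb3, an ephrin receptor, was high in both endoderm groups, at 101 ± 9.09 CPM in pXEN and 87.3 ± 28.1 CPM in XEN, against 6.03 ± 1.36 CPM in ES. Its log2 fold change against ES was 4.06 (SE 0.36, adjusted p = 1.46e-05) in pXEN and 3.85 (SE 0.36, adjusted p = 2.19e-05) in XEN. Cd44, an adhesion receptor, had 35.5, 39.5 and 103 CPM in XEN1, XEN2 and XEN5, against 1.64 and 0.779 CPM in ES2 and ES3, a log2 fold change of 5.58 (SE 1.56, adjusted p = 0.0278). It was 4.91 without XEN5 (adjusted p = 0.0497), and the call was lost with no count filter, without ES2 (6.18, adjusted p = 0.137) and without ES3 (0.155). Target genes of this list thus rose and fell in the same contrast, Ephb3 higher and Ccnd1 and Tnfrsf19 lower in pXEN than in ES.

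**Figure D4:**
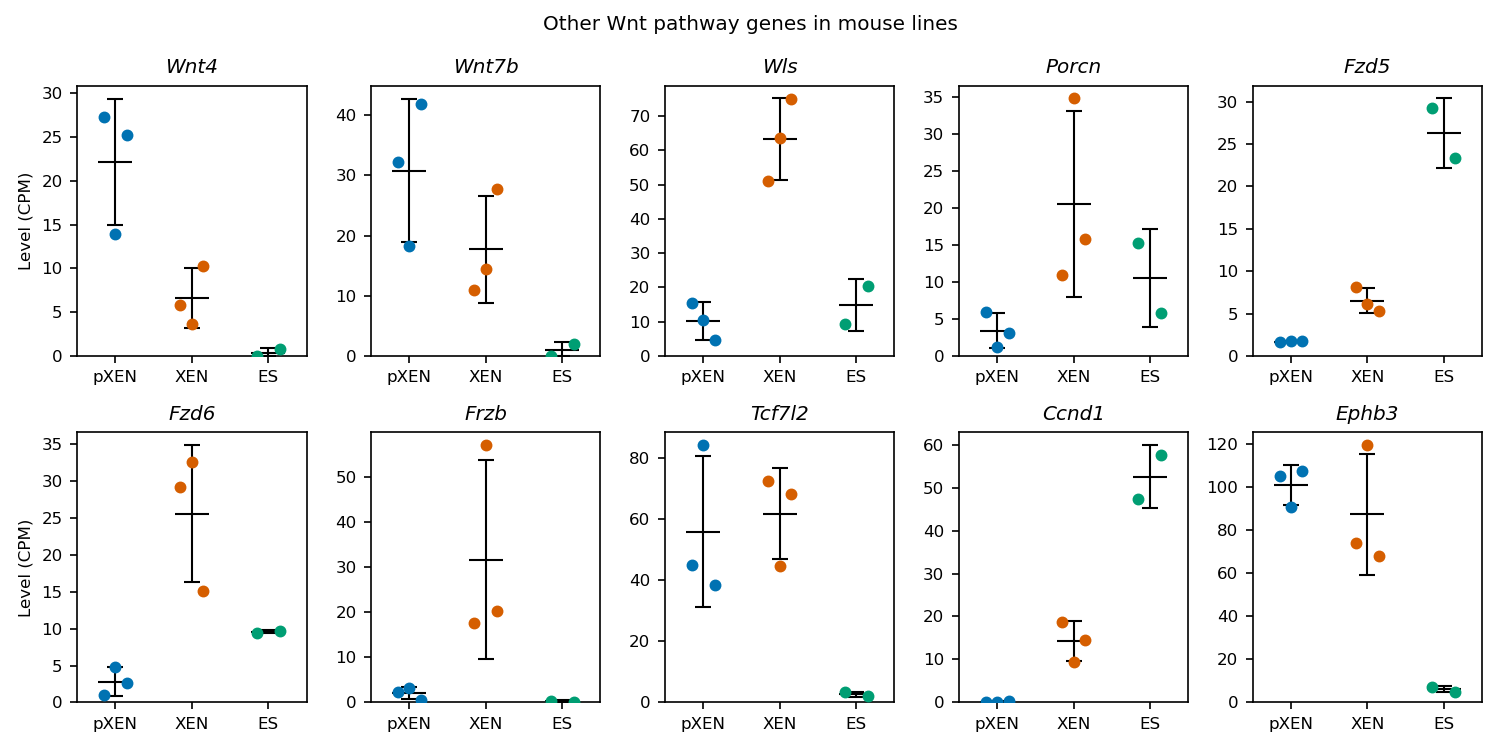
Levels (y axis, TMM-scaled CPM, own scale per panel) of 10 other Wnt pathway genes in pXEN, XEN and ES lines (x axis); points are lines, horizontal marks are means and bars are SDs. Wls and Fzd6 are lower in all pXEN lines than in all XEN lines, Wnt4, Wnt7b, Tcf7l2 and Ephb3 are near 0 or low in ES, and Ccnd1 is near 0 in pXEN.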

How the data were processed

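RNA was measured by RNA-seq in 8 mouse and 4 rat lines. Per the labels' protocols, ribosomal RNA was removed from total RNA and strand-specific paired-end libraries were made. The values the authors deposited are raw whole-number counts, in unstranded, same-strand and reverse-strand columns, as the values show. The submitters' processing notes name CASAVA 1.8.2, Trimmomatic 0.33, STAR 2.5.1 and DESeq2 and the builds mm10 and rn6, without roles; which gene models were counted is not stated in the labels or files used here. Reverse-strand counts were used, which made up 98.9% to 99.3% of stranded counts in mouse. Rows for read classes, 73.4% to 78.3% of reads in mouse and 89.7% to 91.8% in rat, were left out; multimapping reads alone were 7.84% to 9.65% and 65.5% to 70.1%, so reads of near-identical genes may be missing.

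All 8 mouse libraries were fitted together with edgeR 4.0.16 under R 4.3.3 (TMM, filterByExpr by group with minimum count 10, robust glmQLFit, glmQLFTest). Benjamini-Hochberg adjustment ran over the 10895 tested genes, with 0.05 as threshold. SEs are the absolute log2 fold change over the root of F. Alternatives were DESeq2 1.42.0, other scalings, no count filter, the unstranded column, Rn45s left out, 2-group fits, sex as a term and each line left out. Rat levels are CPM of all gene counts and were not tested against mouse. A group with 0 counts was set to 3 counts over the group. Where the level of a group with 1 to 3 counts is compared, ratios with exact 95% intervals are given, in places beside fitted values. Both the floors and the intervals cover only counting error. Coordinates and exon lengths are from GENCODE vM21, and promoters from RefSeq.

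The members and gene lists were chosen with earlier results of these data known. All 10 members are described; of 6 other pathway lists, called genes with a mean of at least 5 CPM in the higher group were named, up to 4 per list and comparison with the smallest p. Genes given only as called or as markers, and Rspo2, Lgr4 and Ror1, fall outside that rule and were chosen after their values were seen. Line numbers serve as replicate names.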

Additional observations from a re-analysis of the deposited data

Results flagged for a closer look

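Axin2 had reads on the strand opposite to the gene, in a column that the comparisons do not use. The pXEN lines held 7 such reads (2, 3 and 2 in pXEN2, pXEN4 and pXEN6), the XEN lines 5 (1, 1 and 3 in XEN1, XEN2 and XEN5) and the ES lines 1 (0 and 1 in ES2 and ES3). These reads were 38.9% of all stranded Axin2 reads in the pXEN lines, 17.9% in XEN and 5.56% in ES, against 0.924%, 0.926% and 0.786% over all genes. The signal is above the ES level in pXEN but rests on 2 or 3 reads per line, and the difference was not tested.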

How the results depend on the processing

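No called result changed direction under the alternatives tried, while 2 uncalled ones changed sign: Sp8 in pXEN against ES (log2 fold change -4.37 to 1.83) and Znrf3 in XEN against ES (-0.20 to 0.34). The number of genes called lower in pXEN against XEN, 1 (Sp8), was 2 with DESeq2 (Sp8 and Znrf3) and with no count filter (Tcf7 and Znrf3), 0 in the fit of those 2 groups alone and with sex as a term, and 0 to 2 with a line left out. The number called higher in XEN against ES, 2, was 0 with no count filter and in the 2-group fit, 1 with sex as a term, and 0 to 2 with a line left out, 0 without XEN2, ES2 or ES3. The number called lower there, 1, was 2 with upper-quartile scaling and with sex as a term, 3 with no count filter, and 1 to 2 with a line left out. The number called lower in pXEN against ES, 3, was 4 with no count filter and 2 to 3 with a line left out. In rat, 2 genes had counts in the unstranded column, Sp8 and Rnf43, in place of 1. Over all genes, pXEN against XEN gave 100 higher and 396 lower calls, 63 and 269 without XEN1 and 68 and 254 without pXEN2. XEN against ES gave 2251 and 1937, 1272 and 1156 without ES2 and 1465 and 1261 without ES3. Upper-quartile scaling moved the median log2 fold change of all genes to -0.13 in pXEN against ES and -0.11 in XEN against ES. No paired analysis was possible because the groups compared share fewer than 2 line numbers. Where ES was left with 1 line, that line was assumed to vary like the other groups. With 1 read worth 0.264 to 0.411 CPM, levels of Axin2, Lef1, Sp5, Rnf43 and Nkd1 rest on few reads and their differences were not detectable with the filter used.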

Other observations

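The genes whose profile over the 8 mouse lines was most like that of a tested Wnt target or feedback gene are given as a description, with the mean absolute difference of centred log2(CPM + 1) as the measure. For Notum these were Ildr1 (0.136) and Pecam1 (0.139), which encodes an endothelial adhesion protein also made by ES cells. Pecam1 had no read in pXEN2, pXEN4 or pXEN6, and 0, 0 and 0.793 CPM in XEN1, XEN2 and XEN5. In ES2 and ES3 it had 12.7 and 26.9 CPM. For Tcf7 they were Etv4 (0.325), an ETS transcription factor, and Hunk (0.329), a kinase. For Znrf3 they were Ski (0.159), a corepressor of TGF-beta signalling, and Dlg5 (0.165). Ski had 21.4, 23.6 and 20.4 CPM in pXEN2, pXEN4 and pXEN6, against 47.5, 40.3 and 33.3 CPM in XEN1, XEN2 and XEN5. In ES2 and ES3 it had 34.1 and 42.1 CPM.

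For Sp8 the nearest genes were Adamts1 (0.404), a secreted metalloprotease, and Sorbs2 (0.571). Adamts1 had 0, 0.285 and 0.861 CPM in pXEN2, pXEN4 and pXEN6, against 9.74, 39.5 and 9.25 CPM in XEN1, XEN2 and XEN5. For Dkk1 they were Myzap (0.479) and Col27a1 (0.524), a collagen gene with 99.0 CPM in XEN2 against 37.0 and 43.1 CPM in XEN1 and XEN5. Myzap had 9.35, 8.06 and 2.11 CPM in XEN1, XEN2 and XEN5, so XEN2 was not its highest line. The measure weights all 8 lines equally and says nothing of shared control. Because these genes were picked for their likeness, a high line or an order of groups shared with the member follows from the choice.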
